A study of Mus musculus with 20 samples.

Results

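The mitosis and G2/M genes are a list of 52 genes whose products enter and carry out cell division, and their level was followed in mouse splenic B cells after the B cell receptor was engaged. Members were the listed genes with a probe set that the array annotation ties to 1 gene symbol, which 51 of the 52 genes had, out of 19938 genes with such a probe set. Ccnb1, which encodes cyclin B1, had none and has no value here. A member could be tested where its probe set reached 7.45, the median of all log2 values, in at least 2 of the 20 arrays. This left 50 members among 11968 genes tested. Cdc25c, the phosphatase that activates CDK1, reached that level in 0 arrays (6.15 to 7.33). The members just inside the limit were Ttk, which reached it in 2 arrays, and Hmmr and Kif4, which reached it in 3 arrays each. Of the tested members, 10 had a mean below 7.45 and 28 were at or above it in all 20 arrays, so counts over the tested members leave out genes that are dim throughout.

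The arrays measured total RNA of B cells from spleens of C57BL/6 mice of 8 to 12 weeks and both sexes (labelled "mix"), purified by removing cells with surface CD43 on magnetic beads and cultured in RPMI medium with 10% FBS. Wild type cells are labelled mb-1/TAK1+/+ and TAK1-deleted cells mb-1/TAK1f/f. The mb-1 driver acts from early in the B lineage, so TAK1 (gene Map3k7), a kinase that links receptors to NF-κB and MAP kinases, is deleted during B cell development and not just during the culture. Cells of both genotypes were left unstimulated (0 h) or given anti-IgM, which clusters the antigen receptor on the cell surface, at 10 µg/ml for 1, 3, 6 or 24 h. Each of the 10 groups has 2 arrays, numbered replicate 1 and replicate 2. The labels do not say whether these came from separate mice or cultures, and p-values therefore cover the spread of these arrays alone, which can be purely technical.

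Cells that leave quiescence first copy their DNA and then divide, and the genes for division are transcribed together late in the cycle. They are held down in resting cells by the DREAM complex and switched on in G2 by B-MYB and FOXM1. These act through a short element called the cell cycle genes homology region (CHR) near the start of transcription. CCAAT boxes are often found close to it. Cyclin A and cyclin B with CDK1 drive entry into mitosis, the kinetochore and spindle proteins move the chromosomes, and the anaphase-promoting complex ends mitosis by marking cyclin B and securin for destruction. In spleen B cells, cross-linking the B cell receptor is a classical way to bring resting cells into the cycle.

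The promoters of 6 members are shown as examples of windows that carry the letters of these elements (Cdk1, Top2a, Ube2c and Kif11) or lack them (Birc5 and Pttg1). They were chosen after the values were seen. Each line gives the 250 bases before the RefSeq start in GRCm38.p6, 5′ to 3′ on the gene's strand, with matches in capitals. The letters marked are TTTGAA for the CHR, read as TTCAAA on the other strand, and CCAAT for the CCAAT box, read there as ATTGG. The windows are chr10:69352913-69353162 (minus strand) for Cdk1, chr11:99024190-99024439 (minus) for Top2a, chr2:164769679-164769928 (plus) for Ube2c, chr19:37376132-37376381 (plus) for Kif11, chr11:117848987-117849236 (plus) for Birc5 and chr11:43425982-43426231 (minus) for Pttg1.
Cdk1: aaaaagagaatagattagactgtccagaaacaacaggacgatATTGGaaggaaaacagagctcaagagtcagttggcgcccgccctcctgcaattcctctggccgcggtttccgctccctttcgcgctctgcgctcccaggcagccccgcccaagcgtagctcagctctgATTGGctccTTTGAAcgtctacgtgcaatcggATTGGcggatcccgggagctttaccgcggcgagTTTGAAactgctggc
Top2a: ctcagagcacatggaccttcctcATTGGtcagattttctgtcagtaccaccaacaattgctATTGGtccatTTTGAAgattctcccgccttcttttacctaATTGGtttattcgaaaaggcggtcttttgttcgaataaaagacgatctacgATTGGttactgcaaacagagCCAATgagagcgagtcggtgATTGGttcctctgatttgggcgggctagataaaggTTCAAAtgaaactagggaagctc
Ube2c: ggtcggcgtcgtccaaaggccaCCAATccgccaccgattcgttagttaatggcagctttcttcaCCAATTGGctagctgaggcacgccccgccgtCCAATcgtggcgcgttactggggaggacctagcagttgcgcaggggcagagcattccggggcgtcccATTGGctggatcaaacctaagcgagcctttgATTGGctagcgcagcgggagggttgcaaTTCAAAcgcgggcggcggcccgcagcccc
Kif11: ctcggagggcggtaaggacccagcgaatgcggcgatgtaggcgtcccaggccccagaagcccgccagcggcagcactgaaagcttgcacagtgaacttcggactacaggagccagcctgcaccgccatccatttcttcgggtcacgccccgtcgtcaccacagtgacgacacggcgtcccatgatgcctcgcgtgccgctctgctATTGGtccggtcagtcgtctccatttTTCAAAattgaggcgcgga
Birc5: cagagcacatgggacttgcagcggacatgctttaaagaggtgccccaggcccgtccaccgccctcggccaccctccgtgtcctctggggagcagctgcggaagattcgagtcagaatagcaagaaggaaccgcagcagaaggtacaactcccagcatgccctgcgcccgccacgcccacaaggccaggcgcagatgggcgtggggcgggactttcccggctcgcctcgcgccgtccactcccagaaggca
Pttg1: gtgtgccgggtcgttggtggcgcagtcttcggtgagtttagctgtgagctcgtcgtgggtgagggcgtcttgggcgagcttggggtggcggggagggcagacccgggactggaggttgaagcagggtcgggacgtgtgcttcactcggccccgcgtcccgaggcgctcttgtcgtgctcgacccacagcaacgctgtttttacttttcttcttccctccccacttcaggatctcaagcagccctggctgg
In Cdk1 a CHR begins 15 bases before the start, with CCAAT boxes 48 and 80 bases before it. In Kif11 the same pair lies 19 and 45 bases before the start, in Ube2c a CHR lies 29 bases and the nearest CCAAT box 57 bases before it, and in Top2a a CHR lies 23 bases and the nearest CCAAT box 58 bases before it. Cdk1 and Top2a hold a second CHR 71 and 179 bases before the start, and one run of capitals in Ube2c is CCAATTGG, where both readings of the CCAAT box overlap. The windows of Birc5, the gene for survivin, and Pttg1, the gene for securin, hold neither set of letters.

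The RefSeq promoter table held 49 windows of 45 members, since a gene may have several starts. The members not in it were Aurkb, Ccna2, Cdc25c, Incenp, Kif20a, Smc4 and Tpx2. CHR letters were in 20 of the 49 windows (40.8%), against 16% of all 32851 windows of the table. CCAAT box letters were in 36 (73.5%), against 33.8% of all windows, and both sets were in 17 (34.7%), against 5.55%. E2F site letters (TTTCCCGC, which on the other strand is GCGGGAAA, and TTTGGCGC, which is GCGCCAAA there) were in 2 windows (4.08%), against 1.3%. Of the 44 members with a window and a value tested, 9 had neither CHR nor CCAAT box letters in any window, and 8 of these 9 rose at 24 h in wild type cells (Anln, Birc5, Mad2l1, Melk, Ncaph, Ndc80, Nuf2 and Nusap1, but not Pttg1). Of the 35 with either set, 33 rose, and Ccnb2 and Cenpa did not pass the test. Members with and without the letters therefore both rose, and these shares and counts carry no test.

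Values were used on the deposited log2 scale, where a difference of 1 is a 2-fold change, and a member was called in a comparison when limma's Benjamini-Hochberg adjusted p over all 11968 genes was below 0.05. Array medians lay between 7.37 and 7.52, and arrays of the same group correlated at 0.979 to 0.994 over all genes, with no array standing apart. Same-numbered arrays of the groups deviated together, so counts are also given from a fit with the replicate number as a block where that moved them by more than 1.5 times. Map3k7 was between 10.16 and 10.71 in the wild type arrays and between 10.4 and 10.76 in the TAK1-deleted arrays, and it was called at none of the 5 times. The sources used here do not say whether its probe set lies in the deleted part, so it does not check the labels. B cell markers were high in every array, with Cd79a at 12.00 to 13.70 and Ms4a1 (CD20) at 11.67 to 13.26. In RNA of a cell population, fewer cells of a type and less RNA per cell cannot be told apart.

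In wild type cells few members changed at 1 h, 15 fell by 3 h and 10 by 6 h, and 46 were higher at 24 h. Of all genes 23.2% fell by 3 h and 19.1% by 6 h. With the replicate block 28 and 21 members fell by 3 and 6 h, where 30.1% and 24.9% of all genes fell. At 24 h against 0 h 46 of 50 members rose and 0 fell, with a median of 1.10, while 23.6% of all genes tested rose. With that block 47 members rose and 1 fell at 24 h, where 31.5% of all genes rose. The highest of the 5 time means was that at 24 h for 47 members. In TAK1-deleted cells 10 members were higher than in wild type at 0 h, as were 1.5% of all genes. Most members fell by 3 and 6 h, where 22.1% and 17.3% of all genes fell. At 24 h 2 members were called above and 10 below their starting level. Of all genes 14.9% were above and 12.7% below theirs. At 24 h 41 of 50 members were lower in TAK1-deleted than in wild type cells and 0 were higher, with a median of -0.90, while 5.18% of all genes were lower. The count at 24 h was 20 without wild type 24 h replicate 1 and 23 without TAK1-deleted 24 h replicate 2, and that at 0 h was as low as 3 without 1 array.

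Markers of other cell types fell in wild type cells over the same 24 h. Over all 11968 genes tested, the same fit called 5238 in that comparison, 53.8% of them as rises and the rest as falls. The fit without an intensity trend called 2410 as falls. Of the T cell markers 10 of 10 fell (median -2.17), of the NK cell markers 9 of 9 (-2.52), of the neutrophil markers 10 of 11 (-1.40), and of the monocyte or macrophage markers 12 of 13 (-2.53), where 1 rose. Of the B cell markers 11 of 12 fell (-0.84), and of 14 erythroid markers 6 fell and 1 rose (-0.41), of 7 plasma cell markers 4 fell and 1 rose (-0.49) and of 5 platelet markers 3 fell (-0.46). Summed as linear values, the T cell markers went from 12374 to 15003 at 0 h down to 3149 to 3179 at 24 h, and the NK cell markers from 7643 to 9344 down to 1570 to 1698. The neutrophil markers went from 8227 to 8812 down to 2234 to 2349. The monocyte or macrophage markers went from 30961 to 32946 down to 5831 to 6303, and the B cell markers from 98173 to 108057 down to 51812 to 53737. The part of a changed cell makeup in the rise of the members was not tested.

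**Figure D1:**
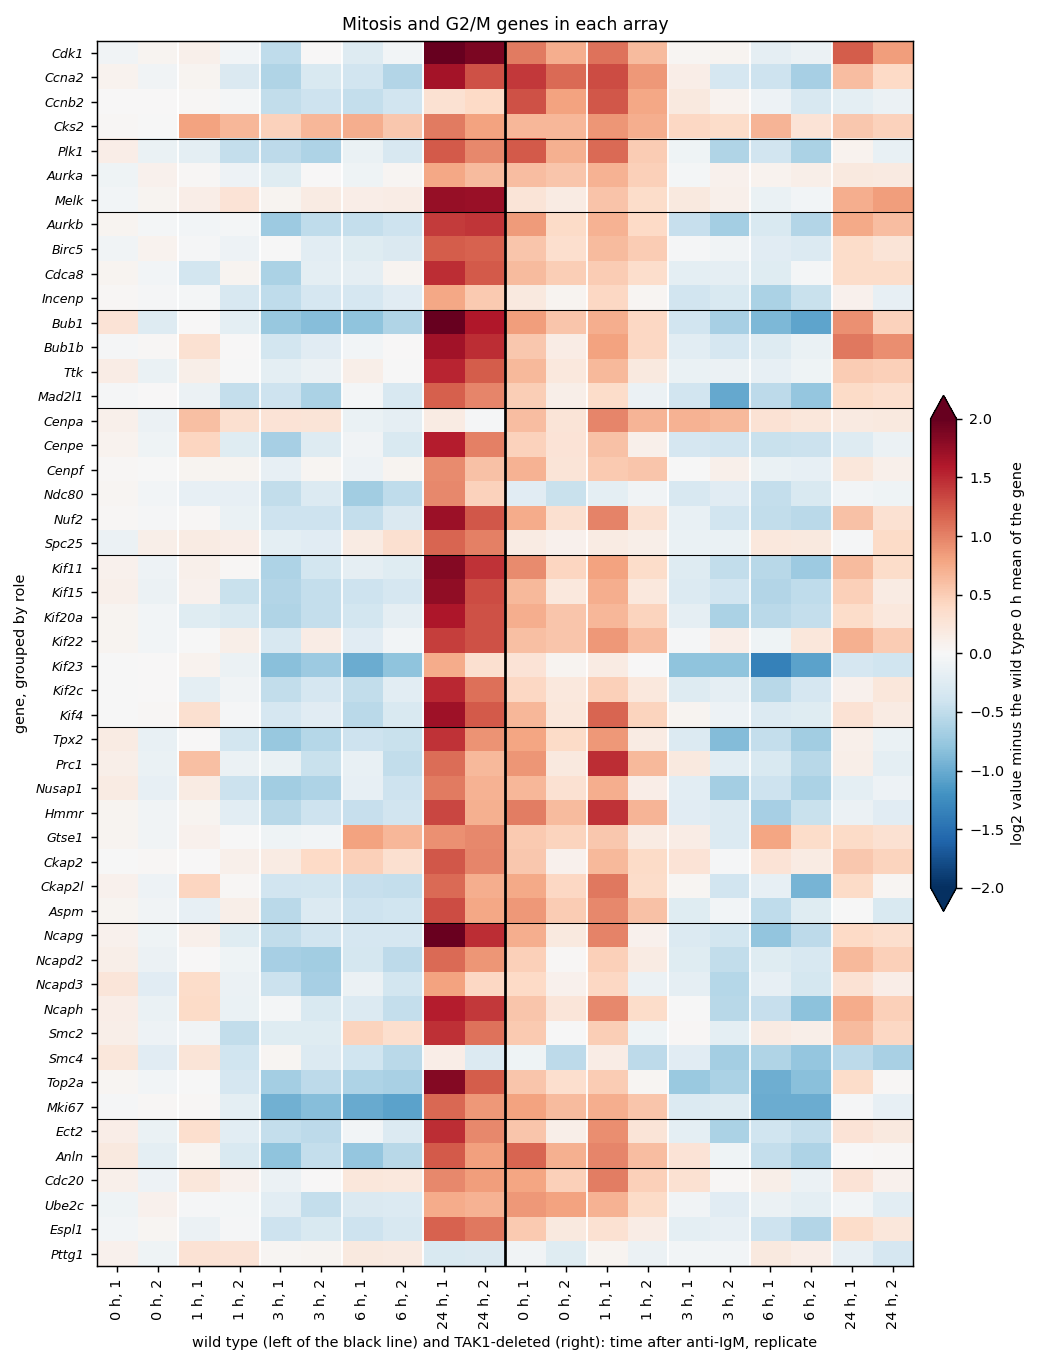
Heat map of the 50 tested members (rows, grouped by role) in the 20 arrays (columns: wild type left and TAK1-deleted right of the black line, by time and replicate); colour is the log2 value minus the gene's wild type 0 h mean, and values beyond 2 have the end colour. Red fills the wild type 24 h columns and, more faintly, the TAK1-deleted 0 and 1 h columns, and blue is found mostly at 3 and 6 h in both genotypes.

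The first hour brought few calls. In wild type cells 2 members rose at 1 h and 0 fell, where 10.6% of all genes rose. The fit with the replicate block had 3 rise and 1 fall, where 17.2% of all genes rose and 26.1% fell. Cks2, a small protein that binds CDK1, was 9.38 and 9.35 at 0 h, then 10.16 and 10.03 at 1 h, a rise of 0.73 ± 0.14 (SE, n = 2 arrays a group, adjusted p = 0.00125). Its arrays at 1 h were both above those at 0 h. Cenpa, the histone variant that marks the centromere, was 9.49 and 9.28 at 0 h, then 9.99 and 9.71 at 1 h, a rise of 0.46 ± 0.15 (adjusted p = 0.0327). The call of Cenpa was lost without wild type 1 h replicate 1 or wild type 0 h replicate 2, which left a count of 1 in each case. In TAK1-deleted cells 0 members were called at 1 h by limma, 3 had an unadjusted p below 0.05, and 19.3% of all genes were called in either direction. With the replicate block 2 members rose and 1 fell, where 15.1% of all genes rose and 21.2% fell. Without TAK1-deleted 0 h replicate 1 or TAK1-deleted 1 h replicate 2 the count was 1.

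At 3 h in wild type cells 15 members fell and 1 rose, with a median of -0.41, while 23.2% of all genes fell and 20.9% rose. Mki67, the proliferation antigen that coats mitotic chromosomes, was 9.95 and 10.01 at 0 h, then 9.02 and 9.13 at 3 h, and it fell by 0.90 ± 0.13 on the log2 scale (adjusted p = 3.08e-05), the largest fall among members. Its 3 h arrays lay below both 0 h arrays. Cks2 was the member that rose, by 0.57 ± 0.14 (adjusted p = 0.00417). The count depended on single arrays: 5 members fell without wild type 0 h replicate 1, 5 without wild type 3 h replicate 1, and 9 without wild type 3 h replicate 2, where the call of Cks2 was lost too. With the replicate block 28 fell and 2 rose, where that fit called 30.1% of all genes as lower and 28.8% as higher.

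At 6 h in wild type cells 10 members fell and 2 rose, with a median of -0.28, while 19.1% of all genes fell and 24.1% rose, so the share of members that fell was near that of all genes. Mki67 was 8.97 and 8.91 at 6 h, a fall by 1.04 ± 0.13 from 0 h (adjusted p = 7.01e-06). Both 6 h arrays were below all 0 h arrays for this gene. The members that rose were Cks2, by 0.64 ± 0.14 (adjusted p = 0.00178), and Gtse1, a microtubule-binding protein of G2 cells, which went from 7.96 and 7.83 to 8.71 and 8.56, by 0.74 ± 0.17 (adjusted p = 0.00165). The calls of these 3 genes held without each array in turn. The number that fell was 3 without wild type 0 h replicate 1 and 2 without wild type 6 h replicate 1. It was 5 without wild type 6 h replicate 2. In the fit with the replicate block 21 fell and 4 rose, where 24.9% of all genes fell and 32.2% rose.

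The early fall was called for more members in TAK1-deleted cells. At 3 h against 0 h 39 of 50 members fell and 0 rose, with a median of -0.70, while 22.1% of all genes fell. At 6 h 40 fell and 1 rose, with a median of -0.83, while 17.3% of all genes fell and 18.5% rose. Ccna2, the gene for cyclin A, was 11.15 and 10.87 at 0 h, 9.86 and 9.40 at 3 h, then 9.31 and 9.06 at 6 h. It had the largest fall of all members at both times, by 1.38 ± 0.20 at 3 h (adjusted p = 4.78e-05) and by 1.82 ± 0.20 at 6 h (adjusted p = 3.57e-06). Ccna2 at 6 h lay below each of its 3 h arrays. Mki67 was 10.78 and 10.61 at 0 h, 9.71 and 9.72 at 3 h, then 8.98 and 8.99 at 6 h, and fell by 1.71 ± 0.13 to 6 h (adjusted p = 5.27e-08). The number that fell at 3 h was 19 without TAK1-deleted 0 h replicate 1 and 23 without TAK1-deleted 3 h replicate 2.

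Pttg1 was the member that rose at 6 h in TAK1-deleted cells, by 0.31 ± 0.12 (adjusted p = 0.0459), from 9.39 and 9.22 to 9.65 and 9.59. Its call was lost without TAK1-deleted 6 h replicate 1, 6 h replicate 2 or 0 h replicate 2. The difference of the changes between genotypes, a comparison added after the values were seen, called 0 members from 0 to 3 h, where 0.0585% of all genes were called in either direction, and 0 from 0 to 6 h, where 0.284% were called. In these limma tests 9 members from 0 to 3 h and 32 from 0 to 6 h had an unadjusted p below 0.05. With the replicate block 4 members were called from 0 to 3 h and 20 from 0 to 6 h, all with the more negative change in TAK1-deleted cells, where that fit called 1.95% and 6.45% of all genes in either direction. With the arrays quantile normalized again 2 and 10 members were called, against 0.886% and 2.7% of all genes. Whether the early fall differed between genotypes thus depended on the fit. Over all genes 0% of the calls from 0 to 3 h had the higher change in TAK1-deleted cells, and 34% after that normalization. The median difference was -0.37 from 0 to 3 h and -0.63 from 0 to 6 h.

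Before stimulation the TAK1-deleted cells had more RNA of the members. At 0 h 10 members were higher in TAK1-deleted cells and 0 lower, with a median of 0.47, while 1.5% of all genes were higher, and 42 of the 50 members were higher in both TAK1-deleted arrays than in either wild type array, as were 14.4% of all genes. Ccna2 was 9.80 and 9.66 in wild type and 11.15 and 10.87 in TAK1-deleted cells, a difference of 1.28 ± 0.20 (adjusted p = 0.00171) and the largest among members. Ccnb2, the gene for cyclin B2, was 9.46 and 9.47 in wild type and 10.73 and 10.26 in TAK1-deleted cells, a difference of 1.03 ± 0.16 (adjusted p = 0.00164). Ube2c, the ubiquitin-conjugating enzyme of the anaphase-promoting complex, was 8.70 and 8.88 against 9.65 and 9.60, a difference of 0.84 ± 0.13 (adjusted p = 0.00166). In each of these genes the arrays of the genotypes did not overlap. The other called members were Cdk1, Cks2, Plk1, Aurka, Kif20a, Mki67 and Anln. The count was 4 without wild type 0 h replicate 1 and 3 without TAK1-deleted 0 h replicate 1. It was 5 without wild type 0 h replicate 2. The replicate block gave a count of 27, where that fit called 4.1% of all genes as higher. The calls of Ccna2, Ccnb2 and Ube2c held without each of the 4 arrays in turn.

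The members called were again higher in TAK1-deleted cells 1 h later. At 1 h 14 members were higher in TAK1-deleted cells and 0 lower, with a median of 0.53, while 2.07% of all genes were higher. Ccna2 was 9.79 and 9.44 in wild type and 11.04 and 10.60 in TAK1-deleted cells, a difference of 1.21 ± 0.20 (adjusted p = 0.0018). Ccnb2 was 9.48 and 9.42 in wild type and 10.70 and 10.24 in TAK1-deleted cells, a difference of 1.02 ± 0.16 (adjusted p = 0.00125). Both genes again had no overlap between the genotypes, and their calls held without each array in turn. The count was 9 without wild type 1 h replicate 1, 3 without TAK1-deleted 1 h replicate 1 and 7 without wild type 1 h replicate 2. With the replicate block 37 were higher and 1 lower, where 7.19% of all genes were higher and 5.72% lower.

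Erythroid markers were higher in TAK1-deleted cells at 0 and 1 h too. Many of them stayed higher at 3 and 6 h, where the median difference of the members was 0.14 and -0.13. All 14 measured erythroid markers were higher in TAK1-deleted cells at 0 h (median 1.53), 13 at 1 h (1.61), 11 at 3 h (1.12), 8 at 6 h (0.89) and 1 at 24 h (0.15). Slc4a1, the anion exchanger of red cells, was 7.17 and 7.63 in wild type and 10.56 and 10.02 in TAK1-deleted cells at 0 h. Summed over the 14 genes as linear values, the level at 0 h was 7364 to 7436 in wild type and 20064 to 24732 in TAK1-deleted arrays. At 1 h it was 7382 to 7787 and 19099 to 24093, and at 6 h 4332 to 4622 and 6604 to 7198. At 24 h it was 3779 to 4193 in wild type and 3173 to 3471 in TAK1-deleted arrays. Values made by RMA have no 0, so no marker was at 0. In TAK1-deleted cells 11 of the 14 fell by 3 h, 13 by 6 h and 13 by 24 h. Most members fell at 3 and 6 h too. From 6 to 24 h the summed level of the members rose, from 15829 to 17173 up to 23414 to 25890. That of the erythroid markers fell further. Dividing erythroid precursors also express mitosis genes. Their part in the higher 0 and 1 h levels of the members, and in the falls that start from them, was not tested. At 0 h markers of NK cells were lower in TAK1-deleted cells for 6 of 9 genes (median -1.10), of T cells for 4 of 10 (-0.67) and of plasma cells for 3 of 7 (-0.56), and of 11 neutrophil markers 3 were higher and 1 lower (0.46). Their summed levels were 7643 to 9344 in wild type and 3850 to 4665 in TAK1-deleted arrays for NK cells, 12374 to 15003 and 8364 to 9870 for T cells, and 12568 to 13699 and 6693 to 7379 for plasma cells, and their part was not tested either. Of the B cell markers 0 of 12 were called at 0 h by limma, with 0 at an unadjusted p below 0.05.

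**Figure D2:**
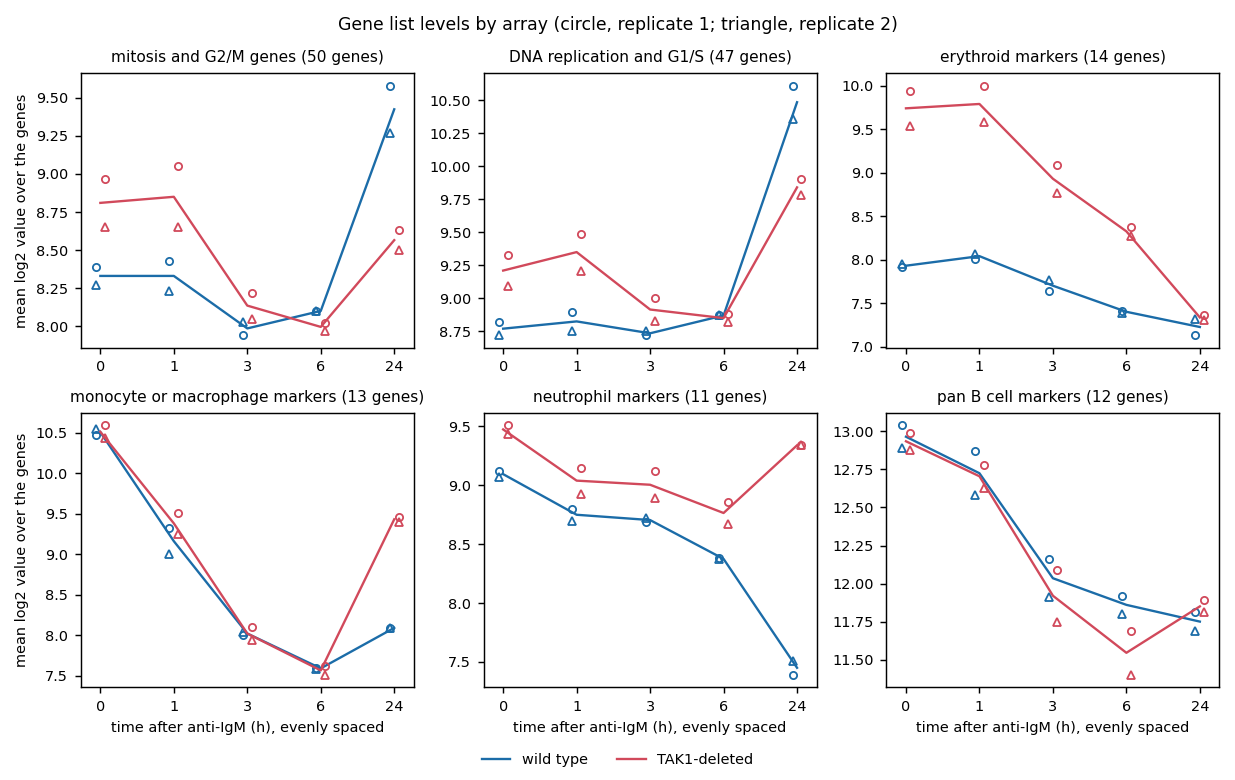
Mean log2 value over the genes of 6 lists (panels) against time after anti-IgM, with a symbol for each array and lines through the group means of wild type (blue) and TAK1-deleted (red) cells. The members and the erythroid markers are both higher in TAK1-deleted cells at 0 and 1 h, whereas at 24 h the members lie lower in TAK1-deleted cells and the erythroid markers lie together.

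The difference was smaller at 3 h and 6 h. At 3 h 1 member, Mki67, was higher in TAK1-deleted cells, with 9.71 and 9.72 against 9.02 and 9.13 (difference 0.64 ± 0.13, adjusted p = 0.0109), while 1% of all genes were higher. That call was lost without any of the 4 arrays, and with the replicate block 4 members were higher, as were 3.82% of all genes. At 6 h 0 members were called by limma, with 3 at an unadjusted p below 0.05 and a median of -0.13, while 2.53% of all genes were called in either direction. With the replicate block 1 member was higher and 2 were lower, where 4.34% of all genes were higher and 7.85% lower. The calls over all genes at 6 h were 36.6% higher ones, or 49.9% after the arrays were quantile normalized again, which called 1 member.

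The rise to 24 h in wild type cells took in every role. The cyclins and their kinase come first in the course of mitosis. Cdk1, the kinase that drives entry into mitosis, was 8.46 and 8.59 at 0 h, 8.63 and 8.47 at 1 h, 8.02 and 8.54 at 3 h, 8.27 and 8.48 at 6 h, then 10.66 and 10.41 at 24 h in wild type cells. In TAK1-deleted cells it was 9.57 and 9.25, 9.61 and 9.17, 8.57 and 8.59, 8.35 and 8.42, and 9.74 and 9.37 at the same times. The wild type arrays at 24 h stood above all others, and the TAK1-deleted arrays at 24 h overlapped with their own at 0 h. Cdk1 rose by 2.01 ± 0.19 in wild type cells (adjusted p = 4.75e-07), the largest rise among members. In TAK1-deleted cells the change from 0 h was 0.14 ± 0.19 (adjusted p = 0.638), and the difference of the changes was -1.86 ± 0.27 (adjusted p = 0.000426).

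Ccna2 in wild type cells was 9.13 and 9.42 at 3 h, 9.35 and 9.15 at 6 h, then 11.39 and 11.01 at 24 h, and in TAK1-deleted cells 10.34 and 10.13 at 24 h. The wild type arrays at 24 h lay above the other wild type arrays and overlapped with the TAK1-deleted arrays at 0 and 1 h. Ccna2 rose by 1.47 ± 0.20 over the wild type 0 h level (adjusted p = 2.16e-05). The change differed between genotypes by -2.25 ± 0.29 (adjusted p = 0.000168), the largest difference among members. Ccnb2 behaved otherwise. It was 9.77 and 9.86 at 24 h in wild type cells, a change of 0.35 ± 0.16 that did not pass the test (adjusted p = 0.0946), and 9.27 and 9.35 in TAK1-deleted cells, where it had fallen by 1.18 ± 0.16 since 0 h (adjusted p = 4.64e-05). Ccnb2 at 24 h in TAK1-deleted cells lay below both arrays of the same cells at 0 h, and the genotypes differed in its change by -1.53 ± 0.23 (adjusted p = 0.000544). Cks2 rose by 0.92 ± 0.14 in wild type cells (adjusted p = 6.95e-05), to 10.40 and 10.17, and was 9.90 and 9.82 at 24 h in TAK1-deleted cells, with a genotype difference of the change of -1.09 ± 0.20 (adjusted p = 0.00259). Its 3 probe sets moved alike (0.92 to 0.98 at 24 h in wild type), and their probes may match near-identical copies of the gene.

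**Figure D3:**
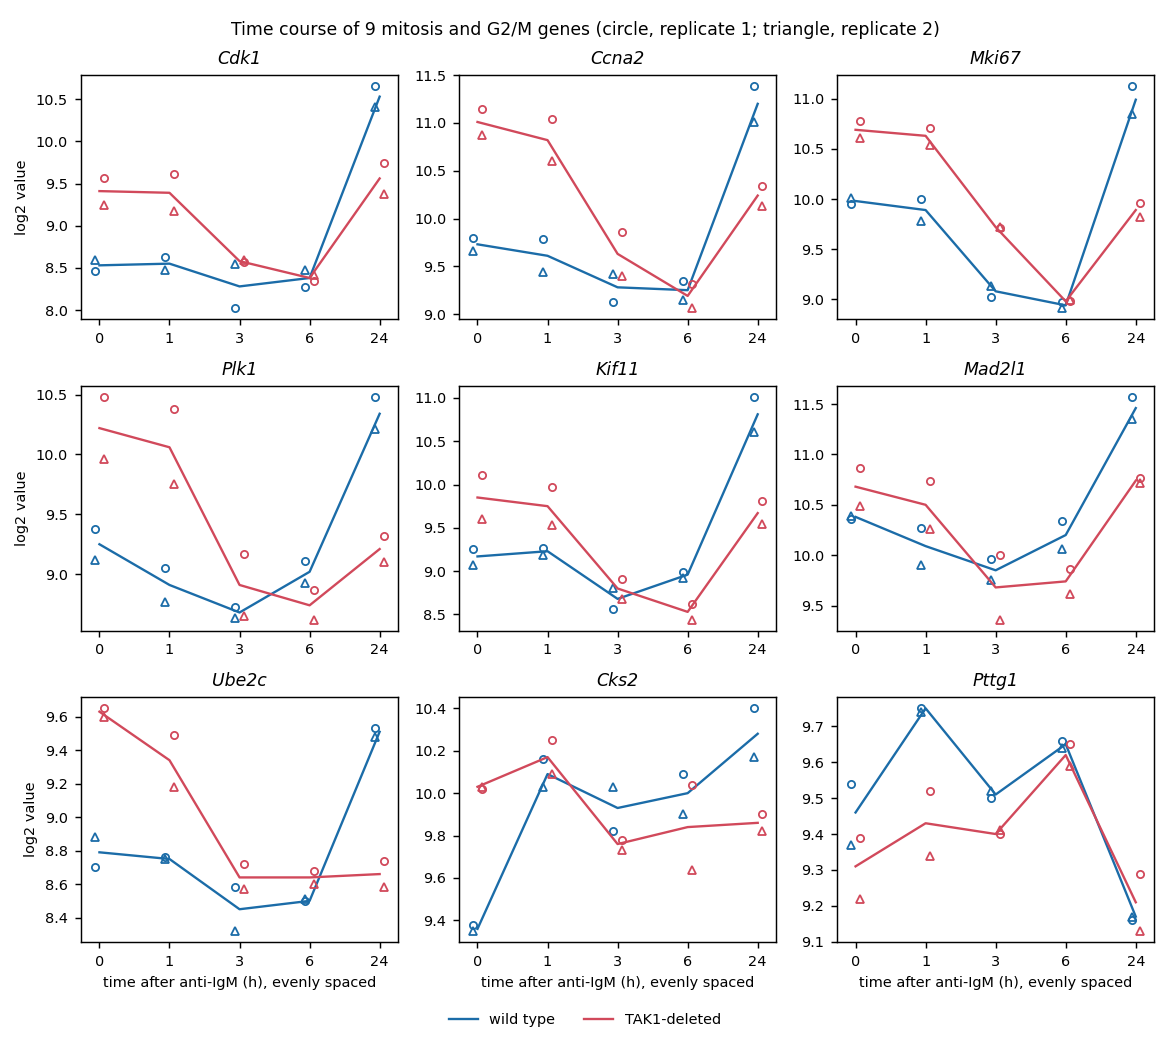
Log2 values of 9 members against time after anti-IgM (evenly spaced, not to scale), with a circle for replicate 1, a triangle for replicate 2 and lines through the group means. In 8 panels wild type cells (blue) end above, and TAK1-deleted cells (red) start above, the other genotype; Cks2 had risen by 1 h in wild type, and Pttg1 ends lower than it was at 6 h in both.

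All 3 mitotic kinases rose in wild type cells at 24 h. Plk1, the Polo kinase of centrosome maturation and mitotic exit, was 9.38 and 9.12 at 0 h, 8.73 and 8.63 at 3 h, 9.11 and 8.93 at 6 h, then 10.48 and 10.21 at 24 h, a rise of 1.09 ± 0.23 (adjusted p = 0.00101). In TAK1-deleted cells it was 10.48 and 9.96 at 0 h, 8.87 and 8.62 at 6 h, then 9.32 and 9.10 at 24 h. The TAK1-deleted level at 24 h was near the wild type level at 0 h and below its own start, and the change differed between genotypes by -2.10 ± 0.32 (adjusted p = 0.00063). Aurka, the Aurora kinase of spindle poles, was 8.44 and 8.60 at 0 h, then 9.30 and 9.16 at 24 h in wild type cells, a rise of 0.71 ± 0.13 (adjusted p = 0.000242), and 8.71 and 8.70 at 24 h in TAK1-deleted cells. Its genotype difference of the change was -1.11 ± 0.18 (adjusted p = 0.000885). Melk, a kinase of proliferating cells, rose by 1.72 ± 0.11 in wild type cells (adjusted p = 7.55e-09) and, unlike most members, also rose in TAK1-deleted cells from 0 to 24 h, by 0.58 ± 0.11 (adjusted p = 0.00109), and both calls held without each array in turn.

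The chromosomal passenger complex, which corrects faulty spindle attachments and directs cytokinesis, rose with all 4 members. Aurkb, its kinase, was 9.90 and 9.81 at 0 h, then 11.25 and 11.28 at 24 h in wild type cells, a rise of 1.41 ± 0.16 (adjusted p = 2.64e-06). In TAK1-deleted cells Aurkb was 10.70 and 10.24 at 0 h, 9.54 and 9.27 at 6 h, then 10.60 and 10.47 at 24 h, and its arrays at 0 and 24 h overlapped. The genotype difference of its change was -1.35 ± 0.22 (adjusted p = 0.00116). Birc5 (survivin) was 7.37 and 7.51 at 0 h, then 8.65 and 8.62 at 24 h in wild type cells, a rise of 1.19 ± 0.12 (adjusted p = 6.65e-07), and 7.81 and 7.70 at 24 h in TAK1-deleted cells, with a difference of the changes of -1.33 ± 0.17 (adjusted p = 0.00014). Cdca8 (borealin) and Incenp rose by 1.35 and 0.65.

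Spindle checkpoint genes, which hold anaphase until every chromosome is attached, rose as a group of 4 with a median of 1.47. Bub1b, which encodes BubR1, was 7.99 and 8.05 at 0 h, then 9.70 and 9.49 at 24 h in wild type cells, a rise of 1.57 ± 0.16 (adjusted p = 9.43e-07). In TAK1-deleted cells Bub1b was 8.56 and 8.17 at 0 h, then 9.08 and 8.95 at 24 h, a rise of 0.65 ± 0.16 (adjusted p = 0.00611) whose call was lost without TAK1-deleted 24 h replicate 1 or 0 h replicate 2. The genotype difference of its change was -0.92 ± 0.23 (adjusted p = 0.0162). Mad2l1, the gene for the checkpoint protein MAD2, was 10.36 and 10.39 at 0 h, then 11.57 and 11.35 at 24 h in wild type cells, a rise of 1.08 ± 0.22 (adjusted p = 0.000658). It was 10.77 and 10.72 at 24 h in TAK1-deleted cells, and the changes differed by -1.02 ± 0.30 (adjusted p = 0.0497). That difference was at the threshold: the call of Mad2l1 was lost without any of 7 arrays (all of the 8 but TAK1-deleted 0 h replicate 2). The call of Bub1b was lost without replicate 1 of wild type 0 h, wild type 24 h or TAK1-deleted 0 h, or without TAK1-deleted 24 h replicate 2. Bub1 rose by 1.86 and Ttk, whose values passed the filter only in the wild type 24 h arrays, by 1.36.

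Kinetochore and centromere genes rose for 5 of 6. Cenpe, the kinesin that carries chromosomes to the spindle equator, was 7.41 and 7.26 at 0 h, then 8.91 and 8.35 at 24 h in wild type cells, a rise of 1.29 ± 0.22 (adjusted p = 0.000202). In TAK1-deleted cells Cenpe was 7.80 and 7.62 at 0 h, then 7.08 and 7.23 at 24 h, and the changes differed by -1.85 ± 0.32 (adjusted p = 0.00152). Ndc80, part of the complex that grips microtubules, was 7.61 and 7.52 at 0 h, 6.88 and 7.06 at 6 h, then 8.53 and 8.03 at 24 h in wild type cells, a rise of 0.71 ± 0.15 from 0 h (adjusted p = 0.00115). Ndc80 was not higher in TAK1-deleted cells at 0 h (7.35 and 7.13), and the genotype difference of its change from 0 h did not pass the test (-0.45 ± 0.21, adjusted p = 0.266). Cenpa, which had risen at 1 h, stood at 9.56 and 9.36 at 24 h in wild type cells, a change of 0.08 ± 0.15 from 0 h (adjusted p = 0.725).

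All 7 mitotic kinesins, motors that slide and shorten spindle microtubules, rose in wild type cells at 24 h, by a median of 1.44. Kif11, which pushes the spindle poles apart, was 9.26 and 9.07 at 0 h, then 11.01 and 10.61 at 24 h, a rise of 1.65 ± 0.19 (adjusted p = 4.49e-06). In TAK1-deleted cells Kif11 was 10.11 and 9.60 at 0 h, 8.62 and 8.44 at 6 h, then 9.81 and 9.54 at 24 h, and the changes differed by -1.83 ± 0.27 (adjusted p = 0.000549). Kif20a, a motor of the central spindle, was 8.33 and 8.23 at 0 h, then 9.89 and 9.55 at 24 h in wild type cells, a rise of 1.44 ± 0.16 (adjusted p = 2.18e-06). At 24 h in TAK1-deleted cells Kif20a was 8.65 and 8.49, below both wild type arrays at that time, and the changes differed by -1.79 ± 0.22 (adjusted p = 0.000152).

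Spindle-associated genes rose for 8 of 8, by a median of 0.98. Tpx2, which activates Aurora A on microtubules, was 8.37 and 8.06 at 0 h, then 9.65 and 9.11 at 24 h in wild type cells, a rise of 1.16 ± 0.25 (adjusted p = 0.00122). In TAK1-deleted cells Tpx2 was 9.0 and 8.60 at 0 h, then 8.31 and 8.08 at 24 h, and the changes differed by -1.77 ± 0.35 (adjusted p = 0.00428). Aspm, a protein of spindle poles, was 7.13 and 7.0 at 0 h, then 8.37 and 7.85 at 24 h in wild type cells, a rise of 1.04 ± 0.19 (adjusted p = 0.000385). It was 7.06 and 6.77 at 24 h in TAK1-deleted cells, which overlaps with wild type cells before stimulation, and its changes differed by -1.88 ± 0.28 (adjusted p = 0.000469).

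Condensins and chromosome structure genes rose for 7 of 8. Top2a, the topoisomerase that untangles sister chromatids, was 8.98 and 8.89 at 0 h, 8.32 and 8.29 at 6 h, then 10.77 and 10.15 at 24 h in wild type cells, a rise of 1.52 ± 0.20 (adjusted p = 1.24e-05). In TAK1-deleted cells Top2a was 9.5 and 9.28 at 0 h, 7.96 and 8.10 at 6 h, then 9.31 and 8.96 at 24 h, and the changes differed by -1.78 ± 0.28 (adjusted p = 0.000753). A second, dim probe set of Top2a stayed between 4.03 and 4.61 in all arrays. Mki67 was 11.13 and 10.85 at 24 h in wild type cells, a rise of 1.01 ± 0.13 (adjusted p = 9.33e-06), and 9.96 and 9.82 in TAK1-deleted cells, with a difference of the changes of -1.81 ± 0.18 (adjusted p = 2.46e-05).

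Ncapd2, a condensin I subunit, was 9.60 and 9.38 at 0 h, then 10.62 and 10.38 at 24 h in wild type cells, a rise of 1.01 ± 0.17 (adjusted p = 0.00012), and 10.14 and 9.96 at 24 h in TAK1-deleted cells. Its genotype difference of the change did not pass the test (-0.70 ± 0.24, adjusted p = 0.0837). Smc4, the ATPase of both condensins, was 10.80 and 10.35 at 0 h, then 10.72 and 10.30 at 24 h in wild type cells (change -0.07 ± 0.26, adjusted p = 0.862) and 10.06 and 9.93 at 24 h in TAK1-deleted cells. Its wild type arrays at 0 and 24 h overlapped. The other condensin ATPase, Smc2, rose by 1.27 in wild type cells.

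Both cytokinesis genes rose. Anln, the actin-binding anillin of the cleavage furrow, was 7.57 and 7.19 at 0 h, 6.60 and 6.82 at 6 h, then 8.61 and 8.20 at 24 h in wild type cells, a rise of 1.03 ± 0.21 (adjusted p = 0.000875). In TAK1-deleted cells Anln was 8.55 and 8.09 at 0 h, then 7.38 and 7.4 at 24 h, and the changes differed by -1.95 ± 0.30 (adjusted p = 0.000615). Ect2, the exchange factor that starts the furrow, rose by 1.22 in wild type cells.

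Of the 4 anaphase genes 3 rose at 24 h in wild type cells. Cdc20, the activator of the anaphase-promoting complex, was 8.48 and 8.28 at 0 h, then 9.34 and 9.22 at 24 h in wild type cells, a rise of 0.90 ± 0.18 (adjusted p = 0.000578), and 8.65 and 8.46 at 24 h in TAK1-deleted cells (difference of the changes -1.36 ± 0.25, adjusted p = 0.00243). Ube2c was 8.5 and 8.51 at 6 h, then 9.53 and 9.48 at 24 h in wild type cells, a rise of 0.72 ± 0.13 over 0 h (adjusted p = 0.00034). In TAK1-deleted cells it stayed at 8.68 and 8.60 at 6 h, then 8.74 and 8.58 at 24 h, about 1 log2 unit below its start, and the changes differed by -1.68 ± 0.19 (adjusted p = 6.38e-05). Pttg1, the securin gene, was at 9.16 and 9.17 at 24 h in wild type cells against 9.54 and 9.37 at 0 h (change -0.29 ± 0.12, adjusted p = 0.051). The main fit called it in neither genotype between 0 and 24 h, though both wild type 24 h arrays lay below both 0 h arrays. With the replicate block, or after quantile normalization, 1 member fell in that wild type comparison. Just Pttg1 and Smc4 had a negative change there. Espl1, the separase that securin holds back, rose by 1.11 in wild type cells.

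Set against their own start, TAK1-deleted cells at 24 h had 2 members higher and 10 lower, with a median of -0.16, while 14.9% of all genes were higher and 12.7% lower. The members that were higher were Melk and Bub1b. Ccnb2 fell the most, and its call and those of Ube2c (-0.97 ± 0.13, adjusted p = 4.35e-05) and Mki67 (-0.80 ± 0.13, adjusted p = 0.000192) held without each array in turn. Without TAK1-deleted 0 h replicate 1 the counts were 3 higher and 3 lower. The replicate block gave 3 higher and 16 lower, where 24.1% of all genes were higher and 20.6% lower. At 24 h against 0 h the changes differed between genotypes for 43 of 50 members, all smaller or more negative in TAK1-deleted cells, with a median of -1.34, while 4.04% of all genes were called in that direction. Because TAK1-deleted cells started higher, this difference holds both the higher start and the lower end.

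At 24 h itself 41 members were lower in TAK1-deleted cells, and 48 of the 50 had both TAK1-deleted arrays below both wild type arrays, as did 23.9% of all genes. Cenpe differed by -1.47 ± 0.22 (adjusted p = 0.000438), the largest difference, followed among the genes with array values above by Top2a with -1.32 ± 0.20 (adjusted p = 0.000368) and Aspm with -1.19 ± 0.19 (adjusted p = 0.000771). Mki67 differed by -1.10 ± 0.13 (adjusted p = 3.93e-05), Kif20a by -1.15 ± 0.16 (adjusted p = 0.000177), Kif11 by -1.14 ± 0.19 (adjusted p = 0.00109), Birc5 by -0.88 ± 0.12 (adjusted p = 0.000124) and Ube2c by -0.85 ± 0.13 (adjusted p = 0.000522). The calls of these 8 genes held without each of the 4 arrays in turn. With the replicate block 48 members were lower, as were 14.1% of all genes. Without the block, the count was 20 leaving out wild type 24 h replicate 1 and 23 leaving out TAK1-deleted 24 h replicate 2. Ccna2, Plk1, Aurka, Bub1b, Mad2l1, Tpx2 and Cdc20 lost their call in both of those cases, Ndc80 and Anln in the first and Cdk1 and Aurkb in the second. The members not called were Ccnb2, Cks2, Cenpa, Prc1, Ckap2l, Ncapd2, Ncapd3, Smc4 and Pttg1.

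Markers of myeloid and some other cells also differed between the genotypes at 24 h. At 24 h 11 of 13 monocyte or macrophage markers (median 1.56) and 11 of 11 neutrophil markers (1.68) were higher in TAK1-deleted cells, and 2 of 12 B cell markers were (0.09). Summed as linear values, the 13 monocyte or macrophage genes were at 5831 to 6303 in the wild type arrays and 16524 to 18368 in the TAK1-deleted arrays. The 11 neutrophil genes were at 2234 to 2349 and 11227 to 11413. The 12 B cell genes were at 51812 to 53737 and 55213 to 57208. T cell markers (3149 to 3179 and 4475 to 4514) and platelet markers (988 to 1000 and 2001 to 2024) were higher in TAK1-deleted arrays. NK cell markers (1570 to 1698 and 1484 to 1560) were not, and plasma cell markers overlapped (9361 to 10400 and 10350 to 12206). No marker was at 0. At 0 h, by contrast, 0 of the 13 monocyte or macrophage markers were called by limma, with 1 at an unadjusted p below 0.05. Their sums were 30961 to 32946 and 29280 to 31837 at 0 h, and 3353 to 3807 and 3210 to 3713 at 6 h. The part of these cells, or of such genes in B cells, in the lower level of the members at 24 h was not tested.

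Between 6 and 24 h members rose in both genotypes, from 6 h levels at which none was called between the genotypes. In wild type cells 45 members rose and 1 fell, with a median of 1.44, while 9.02% of all genes rose and 10.4% fell. In TAK1-deleted cells 24 rose and 1 fell, with a median of 0.55, while 10.8% of all genes rose and 8.05% fell. Of the 45 members that rose in wild type cells, 24 (53.3%) rose in TAK1-deleted cells, and 0 rose in TAK1-deleted cells alone. The largest rise was that of Bub1 in both genotypes, with 2.56 ± 0.21 (adjusted p = 5.04e-07) in wild type and 1.67 ± 0.21 (adjusted p = 4.5e-05) in TAK1-deleted cells. Bub1 went from 7.52 and 7.73 to 10.45 and 9.93 in wild type and from 7.43 and 7.27 to 9.24 and 8.79 in TAK1-deleted cells.

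The rise in TAK1-deleted cells was a median of 45% of that in wild type cells on the log2 scale, from -2.7% for Spc25 to 79.8% for Mad2l1, and it was smaller for each of the 45 members that rose in wild type. Bub1b was at 74.4%, Ncaph at 66.5%, Kif11 at 61.5%, Ckap2l at 54.8%, Cdk1 at 54.3% and Ttk at 46.9%. At the other end were Ube2c with 1.57%, Ccnb2 with 8.17%, Aurka with 11.9%, Aspm with 15.4% and Cenpe with 17%. By role, 4 of 4 checkpoint genes, 4 of 4 passenger complex genes and 6 of 7 kinesins rose in TAK1-deleted cells. In these cells 0 of 8 spindle-associated genes were called by limma, where 7 of 8 had risen in wild type cells. Of all genes 10.8% rose in TAK1-deleted and 9.02% in wild type cells. With the replicate block 4 of the 8 spindle-associated genes rose in TAK1-deleted cells, as did 17.7% of all genes. Both 24 h arrays lay above both 6 h arrays for 6 of the 8, 40 of the 50 members and 28.2% of all genes. The roles were not compared by a test. Across the 50 members the 2 sets of changes correlated at r = 0.87 (rho = 0.84), as a description over genes that share arrays and are not independent. Pttg1 was the member that fell in both, by 0.48 ± 0.12 in wild type (adjusted p = 0.00679) and by 0.41 ± 0.12 in TAK1-deleted cells (adjusted p = 0.0201). The wild type call was lost without wild type 6 h replicate 1 and the TAK1-deleted call without TAK1-deleted 6 h replicate 1, 6 h replicate 2 or 24 h replicate 2.

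**Figure D4:**
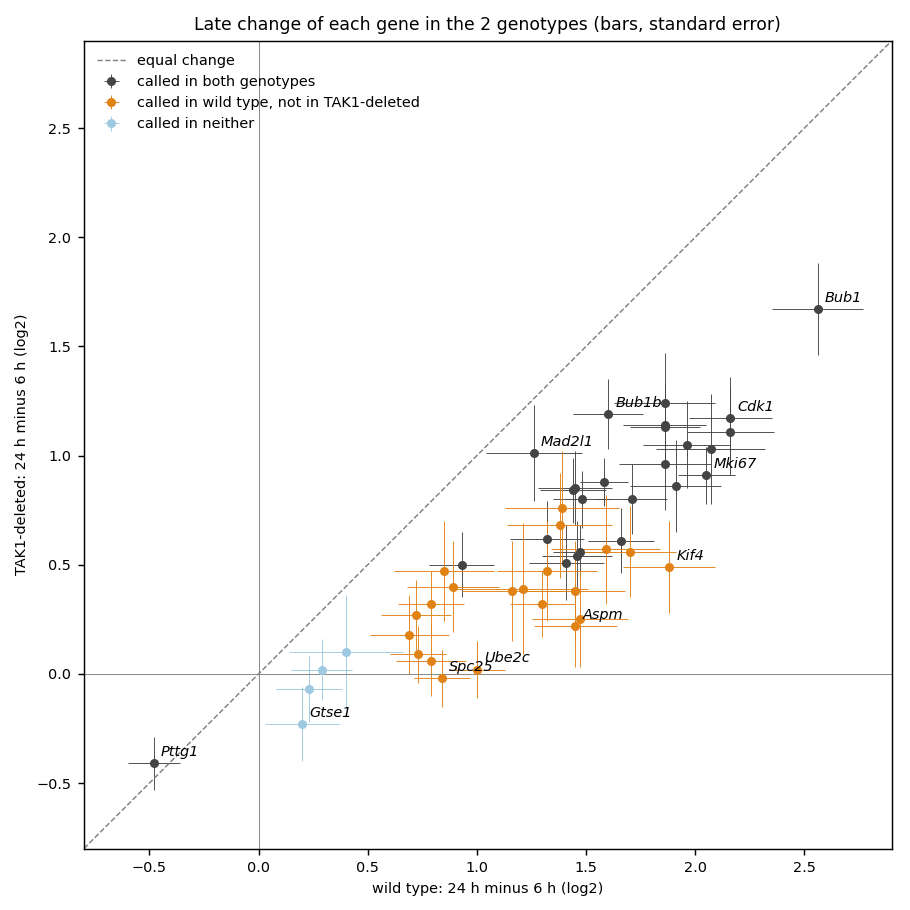
Change from 6 to 24 h in TAK1-deleted cells (vertical axis, log2) against that in wild type cells (horizontal axis, log2) for the 50 members, with standard errors as bars and the line of equal change dashed. The 45 members that rose in wild type all lie below the line; 21 of them were called in wild type and not in TAK1-deleted cells (orange), and Pttg1 fell in both.

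The difference of these late changes was called for 16 members, all with the smaller rise in TAK1-deleted cells (median -0.75), while 0.627% of all genes were called in that direction. Mki67 differed by -1.14 ± 0.18 (adjusted p = 0.00157), Birc5 by -0.90 ± 0.17 (adjusted p = 0.00447) and Ube2c by -0.99 ± 0.19 (adjusted p = 0.00572), with calls that held without each of the 8 arrays in turn. The largest difference was that of Kif4, -1.39 ± 0.30 (adjusted p = 0.0137), a chromokinesin that was dim in most arrays and lost its call without wild type 6 h replicate 1, wild type 24 h replicate 1, TAK1-deleted 6 h replicate 2 or TAK1-deleted 24 h replicate 2. The number of members called depended on single arrays. It was 3 without wild type 6 h replicate 1, wild type 24 h replicate 1 or TAK1-deleted 6 h replicate 2, 5 without TAK1-deleted 24 h replicate 1, 6 without TAK1-deleted 24 h replicate 2, 7 without wild type 6 h replicate 2 and 9 without TAK1-deleted 6 h replicate 1. It was 36 with the replicate block, where that fit called 2.9% of all genes in that direction. Over all genes 83.8% of the calls of this comparison had the higher change in TAK1-deleted cells, and 71.2% after the arrays were quantile normalized again, which called 27 members.

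Other cell cycle lists were measured beside the members. Of 81 other mitosis genes that were measured, 59 rose and 1 fell at 24 h in wild type cells (median 0.85), among them Ncapg2, a condensin II subunit, by 2.24 ± 0.22 and Mastl, the Greatwall kinase, by 2.22 ± 0.24, and Cdc25b fell. At 24 h 38 of the 81 were lower in TAK1-deleted cells and 0 higher (median -0.54), and the change from 0 to 24 h differed for 37. Of all genes 23.6% rose in wild type cells at 24 h, 5.18% were lower in TAK1-deleted cells and 4.04% had the lower change. Of 47 DNA replication and G1/S genes, which act before mitosis, 47 rose in wild type cells (median 1.75) and 34 in TAK1-deleted cells (0.60) at 24 h, and 32 were lower in TAK1-deleted cells at 24 h (-0.66). Of all genes 14.9% rose in TAK1-deleted cells from 0 to 24 h. At 0 h 11 of these G1/S genes were higher in TAK1-deleted cells, as the members were, while 1.5% of all genes were higher.

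Among 23 regulators of G2/M transcription 10 rose and 2 fell in wild type cells at 24 h, while 23.6% of all genes rose. Foxm1, the forkhead factor of G2 genes, was 8.41 and 8.32 at 0 h, then 9.57 and 9.46 at 24 h in wild type cells, a rise of 1.15 ± 0.17, and 8.61 and 8.51 at 24 h in TAK1-deleted cells. Mybl2, which encodes B-MYB, was 8.84 and 8.95 at 0 h, then 10.63 and 10.32 at 24 h in wild type cells, a rise of 1.58 ± 0.18, and 9.57 and 9.71 at 24 h in TAK1-deleted cells. Both differed between genotypes at 24 h, Foxm1 by -0.96 ± 0.17 (adjusted p = 0.00183) and Mybl2 by -0.83 ± 0.18 (adjusted p = 0.00581), though the call of Mybl2 was lost without wild type 24 h replicate 1 or TAK1-deleted 24 h replicate 1. In all 5 regulators were lower at 24 h (Foxm1, Mybl2, E2f1, E2f3 and Tfdp1), while 5.18% of all genes were lower. At 0 h 0 of the 23 were called between genotypes by limma, with 3 at an unadjusted p below 0.05, while 10 members were.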

How the data were processed

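The deposited values are on the log2 scale and were made by the authors with RMA. Per the submitters' processing notes the software was Affymetrix Expression Console 1.0. The build behind the probe sets is not given in the sources used here. RMA does not subtract background to 0, so folds of dim genes can be understated. Of 35556 probe sets, 21789 carried 1 gene symbol in the platform annotation, 1621 several and 12146 were not listed. Those reaching 7.45 in at least 2 arrays were kept, and the brightest probe set stood for each gene. Group means of all 20 arrays were modelled by limma 3.58.1 (R 4.3.3), with variances moderated along an intensity trend (10 residual degrees of freedom), two-sided, with Benjamini-Hochberg adjustment within each contrast. The model was tested on simulated data with independent noise in each array, which lacked the shared deviation of same-numbered arrays. The number of arrays limits the precision (median SE 0.161).

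Deviations of same-numbered arrays correlated at 0.191 to 0.769 in all 45 pairs of groups, so the replicate numbers of the labels pair the arrays. The main fit leaves out this pairing. Standard errors, adjusted p-values and counts without 1 array come from that unpaired fit. Alternatives were the replicate block, no filter, a filter by the mean, quantile normalization, the mean of probe sets, no intensity trend and leaving out each array. Values in arrays and tests were given for 24 members picked to cover the roles, and also for the largest rise and fall and for members called against the majority. Up to 4 called genes were named from other lists. The members and lists were chosen with earlier results of these data known. Promoters came from RefSeq (GRCm38.p6).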

Additional observations from a re-analysis of the deposited data

Results flagged for a closer look

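The change from 0 to 24 h differed between the genotypes by limma's test of that difference for 43 members, and the change from 6 to 24 h for 16, each time with the lower value in TAK1-deleted cells. Among the genes with array values, the 0 to 24 h differences (TAK1-deleted minus wild type, log2) were -1.86 for Cdk1, -2.25 for Ccna2, -1.53 for Ccnb2 and -1.09 for Cks2 among the cyclins. They were -2.10 for Plk1 and -1.11 for Aurka among the kinases, and -1.35 for Aurkb and -1.33 for Birc5 in the passenger complex. For the checkpoint and kinetochore they were -0.92 for Bub1b, -1.02 for Mad2l1 and -1.85 for Cenpe, and for the motors and spindle -1.83 for Kif11, -1.79 for Kif20a, -1.77 for Tpx2 and -1.88 for Aspm. For chromosome structure, cytokinesis and anaphase they were -1.78 for Top2a, -1.81 for Mki67, -1.95 for Anln, -1.36 for Cdc20 and -1.68 for Ube2c.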

How the results depend on the processing

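Among the genes with array values no call changed direction under the alternatives. In the counts the excess of falls was lost in some fits without 1 array. At 6 h in wild type cells 2 members rose and 2 fell without wild type 6 h replicate 1. At 24 h in TAK1-deleted cells 3 rose and 3 fell from 0 h without TAK1-deleted 0 h replicate 1. The uncalled medians at 1 h changed sign, with -0.10 to 0.06 in wild type and -0.20 to 0.21 in TAK1-deleted cells. The replicate block moved the number of members called to 4, 30 and 25 at 1, 3 and 6 h in wild type, to 3 and 19 at 1 and 24 h in TAK1-deleted cells, to 27, 38, 4 and 3 between genotypes at 0, 1, 3 and 6 h, and to 4, 20 and 36 for the genotype difference from 0 to 3, 0 to 6 and 6 to 24 h. It changed no other count by more than 1.5 times, and among the genes with array values it added 77 calls and lost none. Quantile normalization gave 1 call in TAK1-deleted cells at 1 h, 16, 23, 3 and 1 between genotypes at 0, 1, 3 and 6 h, and 2, 10 and 27 for the same 3 differences. Both fits also called more of all genes. With the replicate block these shares were 43.2%, 59% and 57.1% at 1, 3 and 6 h in wild type cells. They were 36.3% and 44.6% at 1 and 24 h in TAK1-deleted cells. Between genotypes they were 6.99%, 12.9%, 8.31% and 12.2% at 0, 1, 3 and 6 h, and 1.95%, 6.45% and 10.6% for the 3 differences. After quantile normalization they were 29% at 1 h in TAK1-deleted cells. Between genotypes they were then 4.67%, 8.08%, 5.01% and 6.02%, and 0.886%, 2.7% and 6.32% for the 3 differences. The filter by the mean gave 9 for the difference from 6 to 24 h. Leaving out 1 array gave 1 to 2, 6 to 11 and 4 to 9 calls at 1, 3 and 6 h in wild type, 0 to 1, 19 to 39 and 6 to 12 at 1, 3 and 24 h in TAK1-deleted cells, 3 to 10, 3 to 17, 0 to 0 and 20 to 38 between genotypes at 0, 1, 3 and 24 h, and 3 to 14 for the difference from 6 to 24 h. The cause was not tested, except that leaving out an array leaves fewer samples. The 24 h rise in wild type (41 to 46 calls) and the genotype difference from 0 to 24 h (35 to 45) moved by less than 1.5 times. Members near the median of all values, such as Ttk, Hmmr and Kif4, have folds limited by background.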
